A study of Mus musculus with 9 samples.

Results

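Chemokines are small secreted proteins that form gradients and draw leukocytes and progenitor cells through receptors coupled to G proteins. In connective tissue, fibroblasts are a major source of them. CXCL12 retains and recruits cells that carry CXCR4, and ACKR3 is an atypical receptor that takes up and degrades CXCL12 rather than signalling through G proteins. CXCL1 and CXCL5 draw neutrophils through CXCR2, CCL2 and CCL7 draw monocytes through CCR2, and CXCL16 and CX3CL1 are made as membrane-bound chemokines that proteases can shed.

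The genes described are 8 chemokine genes (Cxcl12, Cxcl1, Cxcl5, Cxcl14, Cxcl16, Cx3cl1, Ccl2 and Ccl7) and the scavenger receptor gene Ackr3. They were chosen by name with earlier results of these data known, so the shares of them called below describe this set only. All 9 were found by symbol among the 53465 genes of the raw count table. RNA-seq libraries were made from mouse adult fibroblasts (MAFs): 3 controls, 3 exposed to DPI for 24 h and 3 exposed for 72 h. DPI is taken here to be diphenyleneiodonium, a flavoenzyme inhibitor, because the series concerns targeting of the FMN cofactor of respiratory complex I. The sources used here do not give strain, sex, age, passage, the dose of DPI, any vehicle or the time at which controls were harvested, so DPI and time in culture cannot be told apart. Separate cultures are not stated either, so the p-values reflect only how far libraries of a group differ, and that spread may be technical.

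Libraries held 15292736 to 17923656 counts, and levels are CPM (counts divided by library size and put on a common scale) adjusted by TMM, a method that corrects for differences in library composition. Control 2 stood apart from the other controls, with a chi-square per degree of freedom of 34.6 and 29.2 against controls 1 and 3, which gave 4.52 against each other. Of 10 fibroblast markers, 8 were tested, and Col1a1 averaged 1705 CPM in controls. Col1a2, Fn1 and Vim averaged 1919, 2241 and 1644 CPM there, so the sum below is mostly these and Col1a1. The others tested were far lower in controls, with Pdgfrb at 29.9, Pdgfra at 8.62, Col3a1 at 1.86 and Dcn at 1.32 CPM. Thy1 and Lum, which mark many fibroblasts, had at most 3 counts in every library. The summed level of the fibroblast markers ranged from 6637 to 8203 CPM in controls, 12740 to 13420 at 24 h and 10840 to 12440 at 72 h. Macrophage markers summed to 6.72 to 9.87, 8.18 to 10.3 and 6.67 to 7.77 CPM in the same order, with 3 of 9 tested and with Ptprc, Adgre1, Itgam and Aif1 at no more than 3 counts in every library. Endothelial markers summed to 1.77 to 1.98, 3.17 to 4.16 and 1.10 to 1.85 CPM, with 1 of 6 tested and Emcn and Tie1 at no more than 3 counts. Keratinocyte and epithelial markers summed to 1.38 to 2.18, 1.35 to 1.58 and 6.44 to 6.67 CPM, with 2 of 6 tested and Krt5 and Epcam at no more than 3 counts. Pericyte and smooth muscle markers summed to 136 to 175, 172 to 179 and 234 to 257 CPM, with 3 of 5 tested. That sum was mostly Cspg4, which averaged 126, 156 and 225 CPM, while Acta2 averaged 20.6, 11.7 and 4.79 CPM and Notch3 13.5, 6.35 and 12.0 CPM. At 24 h Acta2 and Notch3 fell (log2 change -0.81 and -1.08), and at 72 h Acta2 fell (-2.10) and Cspg4 rose (0.84), each with an edgeR adjusted p under 0.05. By this threshold all 8 fibroblast markers tested rose at 24 h, beside 12.4% of all genes. At 72 h 3 of them rose, beside 4.73%. At 24 h Col3a1, Dcn, Pdgfrb, Pdgfra and Fn1 rose by 1.66, 1.41, 0.91, 0.88 and 0.70 on the log2 scale. Their 72 h changes of 0.37, -0.23, 0.10, -0.10 and 0.11 did not pass. Kdr rose (0.98) and Krt14 fell (-3.37, on few counts) at 24 h, while Krt8 rose (1.86) and Cd68 fell (-0.84) at 72 h. The fibroblast, endothelial, epithelial and pericyte sums moved with the groups. The part of these sums and markers in the results below was not tested. In bulk RNA, fewer cells of a type and less RNA per cell cannot be told apart.

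Sequence upstream of the start site is shown for the genes whose changes stood out, Cxcl12 at 24 h and Ackr3 at 72 h, and for Cxcl1, whose window alone among the 5 available matched the kappa B consensus, the site bound by NF-kB. Each line gives the 230 bases from 250 to 21 before the RefSeq start, on the plus strand of GRCm38.p6, 5′ to 3′. Capitals mark every match, on either strand, to the kappa B consensus, the GC box GGGCGG, the hypoxia response core (ACGTG or GCGTG) or the TATA box TATAAA.
Cxcl12 (chr6:117168285-117168514): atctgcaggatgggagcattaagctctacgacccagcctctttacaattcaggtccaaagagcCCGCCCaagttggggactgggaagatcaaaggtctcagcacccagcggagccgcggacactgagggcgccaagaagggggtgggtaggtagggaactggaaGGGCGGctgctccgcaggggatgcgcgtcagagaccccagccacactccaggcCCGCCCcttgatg
Ackr3 (chr1:90203730-90203959): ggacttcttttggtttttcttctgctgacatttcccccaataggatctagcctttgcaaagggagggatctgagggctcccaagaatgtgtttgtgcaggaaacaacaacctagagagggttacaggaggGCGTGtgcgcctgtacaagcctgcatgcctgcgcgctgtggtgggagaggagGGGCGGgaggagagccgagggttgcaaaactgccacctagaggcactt
Cxcl1 (chr5:90890995-90891224): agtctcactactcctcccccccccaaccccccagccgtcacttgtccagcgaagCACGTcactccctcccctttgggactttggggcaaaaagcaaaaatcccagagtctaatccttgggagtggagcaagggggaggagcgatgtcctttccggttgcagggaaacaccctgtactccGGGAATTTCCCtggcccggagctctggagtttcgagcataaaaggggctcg
The capitals in the Cxcl12 window are 3 GC boxes, and 29.8% of the 32841 RefSeq windows of this length held at least 1. In Ackr3 they are a hypoxia response core from 120 to 116 bases before the start and a GC box from 68 to 63 bases before it. The hypoxia response core, in either form, was in 36% of windows. In Cxcl1 they are a hypoxia response core from 196 to 192 bases before the start and a kappa B match on each strand. The match on the plus strand runs from 71 to 62 bases before the start, and the overlapping match on the minus strand from 70 to 61. The kappa B consensus was in 6.68% of windows, and the TATA box, which matched none of the 3 windows shown, in 11.8%. These matches describe letters only and do not show binding. Windows were available for 5 of the 9 members, the others being Cxcl14 and Cx3cl1, and none was used for Cxcl5, Cxcl16, Ccl2 and Ccl7.

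Of the 9 members, 8 passed the filter on low counts, each with at least 22 counts in every library, so that no member passed only through the group where it was highest. Cxcl14, a chemokine of epithelium and stroma on chromosome 13, had 0 counts in all 9 libraries and was not detected at this depth. A count of 0 allows a level of up to 0.167 to 0.196 CPM, depending on the library, from counting error only. None of 22 chemokine receptor genes passed the filter, and the highest count of any of them in a library was 14, for Ccr10. Cxcr4, the signalling receptor for CXCL12, had 0 counts in 8 libraries and 1 count in DPI 72 h replicate 3. Cxcr2 had 0 to 4 counts, Cxcr6, the receptor of CXCL16, 0 to 6, and Ccr2 and Cx3cr1 0 or 1. The other atypical receptors Ackr1 and Ackr2 had 0 counts throughout, and Ackr4 had 0 to 7. Ackr3 was thus the receptor gene of this family with a measurable level, at 249 counts or more in each library.

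The members differed widely in level in controls, as compared per kilobase of exonic length. Cxcl1 had the highest level, 19.1 ± 0.713 CPM per kb (SD, n = 3), above 79.3% of all genes tested. Ccl2 followed at 14.0 ± 2.04, and Cx3cl1 at 6.19 ± 0.676 CPM per kb. Ccl7, at 5.26 ± 0.465 CPM per kb, overlapped in range with both its neighbours in this order, Cx3cl1 above it and Ackr3 at 4.88 ± 0.221 below it. Cxcl5 had 2.88 ± 0.617 and Cxcl16 1.35 ± 0.0714 CPM per kb. Cxcl12 was the lowest of the 8 expressed members, at 0.971 ± 0.114 CPM per kb, above 18.9% of genes tested. Its exons span 8176 bases when all its isoforms are joined. Per kilobase of the longest coding transcript, which is 5627 bases, it had 1.41 ± 0.165 CPM per kb and overlapped in range with Cxcl16 at 1.52 ± 0.0799.

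The 24 h comparison asked which of these genes differed from control after the shorter exposure. Cxcl12, Ccl2, Cx3cl1, Cxcl1 and Ackr3 rose, and none of the members fell. That is 5 of 8 tested, beside 24.7% of all 14088 genes tested, with 12.4% called higher and 12.3% called lower. A gene was called where its adjusted p from edgeR was under 0.05. The median log2 change was 0.51 over the 8 members and -0.0056 over all genes. The number called was 5 in each alternative setting. The groups did not overlap for 7 of the 8 members, all but Ccl7, beside 40.5% of all genes. For Cxcl16 the separation was narrow and depended on the TMM scaling.

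Cxcl12 (ENSMUSG00000061353, chromosome 6 from 117168535 to 117181367 in GRCm38) had 7.60, 8.99 and 7.23 CPM in controls 1 to 3. The 24 h libraries had 40.0, 42.5 and 44.8 CPM, and at 72 h 10.6, 11.4 and 9.80. Every 24 h library was far above every control and every 72 h library. The 24 h increase was 5.33-fold, or 2.41 ± 0.10 in log2 units (SE; edgeR adjusted p = 1.24e-07). At 72 h the level was still above all controls, by 0.41 ± 0.11 on the log2 scale, at edgeR adjusted p = 0.042. It was kept in 5 of 18 alternatives (other scalings, filters, tools and designs, and each library left out), whose adjusted p ran from 0.0075 to 0.168. Leaving out 1 library ended the call in 8 of 9 cases, each one but control replicate 2. Between the exposures Cxcl12 fell by 2.003 ± 0.10 on the log2 scale (edgeR adjusted p = 4.95e-07).

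**Figure D1:**
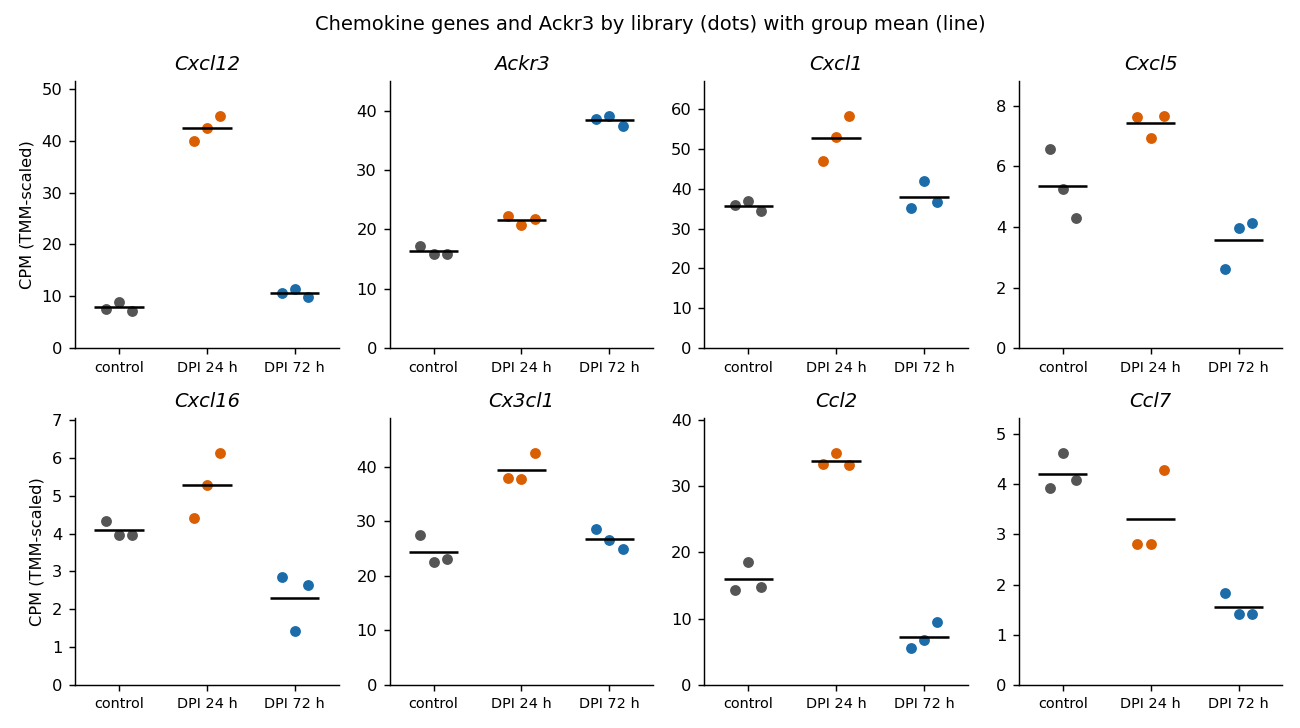
TMM-scaled CPM (y axis, from 0 in each panel) of the 8 expressed genes in each library (dots), grouped as control, DPI 24 h and DPI 72 h (x axis), with the mean of 3 libraries as a line. Cxcl12 lies between 40.0 and 44.8 CPM at 24 h and between 7.23 and 8.99 CPM in controls, while Ackr3 is highest at 72 h, at 37.5 to 39.1 CPM.

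Ackr3, the receptor that scavenges CXCL12, took another course. Its gene lies on chromosome 1 from 90203980 to 90216751. The levels were 17.2, 15.9 and 15.9 CPM in controls, 22.2, 20.7 and 21.8 at 24 h, and 38.6, 39.1 and 37.5 at 72 h. The 3 groups did not overlap, and the order was control, 24 h, 72 h. The log2 change was 0.40 ± 0.07 at 24 h (SE, edgeR adjusted p = 0.0023) and 1.23 ± 0.07 at 72 h (2.35-fold, adjusted p = 2.19e-06). The level at 72 h exceeded that at 24 h by 0.83 ± 0.07 (adjusted p = 1.24e-05), and each of these calls held in 18 of 18 alternatives. It was the only member tested that was higher at 72 h than at 24 h.

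The ratio of Cxcl12 to Ackr3 counts within a library does not depend on how libraries are scaled. It was 0.442 to 0.566 in controls, 1.80 to 2.06 at 24 h and 0.262 to 0.291 at 72 h. Counts of the ligand thus outnumbered those of the scavenger in the 24 h libraries, and were fewer in controls and at 72 h. These are ratios of counts, and per length Ackr3 was the higher of the pair at 24 h too, at 6.44 ± 0.242 against 5.19 ± 0.295 CPM per kb of exonic length. Per kilobase of the longest coding transcript the order was the other way, with 7.54 ± 0.428 for Cxcl12 and 7.03 ± 0.264 for Ackr3, and the ranges overlapped.

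The monocyte chemokine genes Ccl2 and Ccl7 lie next to each other on chromosome 11, from 82035571 to 82037453 and from 82045712 to 82047525, with 8258 bases between them. Ccl2 had 14.4, 18.6 and 14.8 CPM in controls, 33.4, 35.1 and 33.2 at 24 h, and 5.53, 6.73 and 9.55 at 72 h. All 24 h libraries were above all controls and all 72 h libraries below them. Ccl2 rose by 1.09 ± 0.16 at 24 h (SE, edgeR adjusted p = 6.39e-04) and fell by 1.14 ± 0.17 at 72 h on the log2 scale (adjusted p = 0.0019). It was the member whose change from control passed in opposite directions at the 2 times, and both calls held in 18 of 18 alternatives.

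Ccl7 had 3.92, 4.63 and 4.09 CPM in controls, 2.81, 2.80 and 4.29 at 24 h, and 1.82, 1.42 and 1.42 at 72 h. The 24 h libraries overlapped with controls because of DPI 24 h replicate 3, while all 72 h libraries were below both. The 24 h change of -0.35 ± 0.24 did not pass (edgeR adjusted p = 0.32), with an approximate 95% interval from -0.82 to 0.11. At 72 h Ccl7 fell by 1.44 ± 0.25 on the log2 scale (adjusted p = 0.0044). The ratio of Ccl2 to Ccl7 counts was 3.63 to 4.01 in controls, 7.74 to 12.5 at 24 h and 3.03 to 6.73 at 72 h, so the 24 h range lay above both others. The 2 genes are paralogs, and the sources used here do not say how reads shared between them were counted.

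The neutrophil chemokine genes Cxcl1 and Cxcl5 lie 129616 bases apart on chromosome 5, Cxcl5 from 90759360 to 90761624 and Cxcl1 from 90891241 to 90893115. Cxcl1 had 35.8, 37.0 and 34.4 CPM in controls, 46.9, 52.9 and 58.3 at 24 h, and 35.3, 42.0 and 36.6 at 72 h. The 24 h libraries were above all others, and the 72 h libraries overlapped with controls. Cxcl1 rose by 0.56 ± 0.09 in log2 units at 24 h (SE, edgeR adjusted p = 0.0015), and at 72 h the change of 0.09 ± 0.09 did not pass (adjusted p = 0.659, approximate 95% interval -0.10 to 0.27). Cxcl5 had 4.29 to 6.57 CPM in controls, 6.94 to 7.67 at 24 h and 2.61 to 4.13 at 72 h. Its groups did not overlap, but neither change from control passed, with 0.47 ± 0.21 at 24 h (adjusted p = 0.134) and -0.59 ± 0.22 at 72 h (adjusted p = 0.133). With 43 to 136 counts per library, Cxcl5 was measured less precisely than Cxcl1, which had 537 to 1034.

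Of the membrane-bound chemokines, Cx3cl1 lies on chromosome 8 from 94772009 to 94782427 and Cxcl16 on chromosome 11 from 70453983 to 70459984. Cx3cl1 had 27.4, 22.6 and 23.0 CPM in controls, 38.0, 37.7 and 42.6 at 24 h, and 28.6, 26.6 and 25.0 at 72 h. The 24 h libraries stood above all others. Cx3cl1 rose by 0.70 ± 0.09 in log2 units at 24 h (SE, edgeR adjusted p = 3.89e-04), and its 72 h change of 0.14 ± 0.10 did not pass (adjusted p = 0.451, approximate 95% interval -0.05 to 0.32). Cxcl16 had 3.97 to 4.34 CPM in controls, 4.40 to 6.15 at 24 h and 1.42 to 2.85 at 72 h. Its groups did not overlap, yet the changes of 0.37 ± 0.25 at 24 h and -0.83 ± 0.26 at 72 h did not pass (adjusted p = 0.32 and 0.0827), on 23 to 109 counts per library. Control 1 and DPI 24 h replicate 1 had 72 counts each, so the separation of controls from 24 h was narrow and depended on the TMM scaling. DESeq2 did call the 72 h decrease, at adjusted p = 0.0473. Cxcl16 overlaps Zmynd15 on the other strand over 552 exonic bases, and Zmynd15 had 3 to 16 counts. The sources used here do not give the strand setting, so reads in that overlap cannot be told apart.

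**Figure D2:**
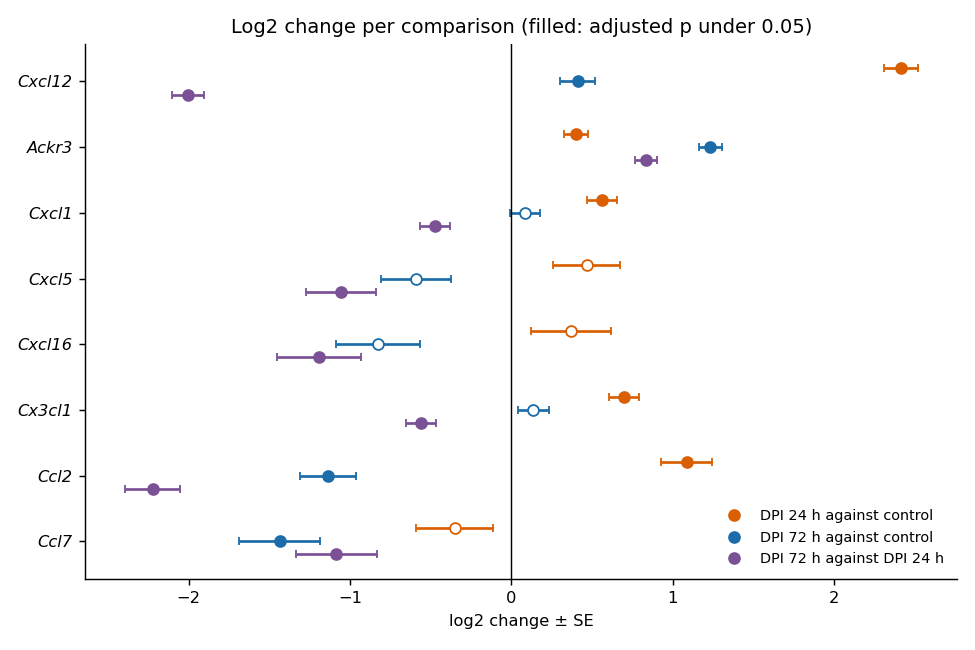
Log2 change (x axis) with its standard error for the 8 expressed genes (y axis) in the 3 comparisons (colours), filled where the edgeR adjusted p was under 0.05. The 24 h changes run from -0.35 for Ccl7 to 2.41 for Cxcl12, and at 72 h against 24 h each gene but Ackr3 lies left of 0.

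After the longer exposure, Ackr3 rose, Ccl2 and Ccl7 fell, and Cxcl12 passed with the reservation given above. That is 4 of 8 tested, beside 8.56% of all genes (4.73% higher and 3.83% lower), with a median log2 change of -0.25 over the members and -0.0050 over all genes. The groups did not overlap for 6 of the 8 members, all but Cxcl1 and Cx3cl1, beside 27.1% of all genes. The number called was 3 when Cxcl12 lost its call, and 5 with DESeq2, which added Cxcl16. Both comparisons with control use the same 3 control libraries, so they are not independent of each other.

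Set directly against the 24 h libraries, the 72 h libraries differed in every expressed member. All 8 expressed members passed, beside 21.3% of all genes (10.1% higher and 11.2% lower). Ackr3 was higher at 72 h and the 7 chemokine genes were lower, with a median log2 difference of -1.07 over the members against 0.0019 over all genes. The differences were -2.22 ± 0.17 for Ccl2, -2.003 ± 0.10 for Cxcl12, -1.19 ± 0.26 for Cxcl16, -1.08 ± 0.25 for Ccl7, -1.06 ± 0.22 for Cxcl5, -0.56 ± 0.09 for Cx3cl1 and -0.47 ± 0.09 for Cxcl1 (SE). Their edgeR adjusted p ran from 4.95e-07 for Cxcl12 to 0.0114 for Ccl7, which had 0.0558 without DPI 24 h replicate 3. The groups did not overlap for any of the 8 members, as for 46.2% of all genes.

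The other chemokine genes listed were mostly silent. The list does not cover the whole mouse family, and genes outside it were not examined. Of 36 chemokine genes listed, members included, 12 were tested, and the 24 others had at most 12 counts in any library, 10 of them 0 in all 9. Of the 10 other CXC chemokine genes, 2 were tested, Cxcl10 and Ppbp, and of the 18 other CC and C chemokine genes, 3 were tested, Ccl5, Ccl9 and Ccl25. At 24 h Ccl9, a chemokine of myeloid cells, went from 4.46, 5.41 and 4.80 CPM to 17.9, 12.0 and 14.8, a log2 increase of 1.60 ± 0.16 (SE, edgeR adjusted p = 5.1e-05), and at 72 h its change of 0.31 ± 0.17 did not pass (adjusted p = 0.306). Ccl9 and Cxcl12 were both several-fold above control at 24 h and nearer to it at 72 h.

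Cxcl10 and Ccl5, which interferon induces, were both below all controls at 72 h, unlike Ccl9 and Cxcl12. At 24 h their changes had opposite signs. Cxcl10 had 52.3 to 60.7 CPM in controls, 63.5 to 72.6 at 24 h and 18.1 to 22.4 at 72 h. It fell by 1.46 ± 0.10 in log2 units at 72 h (SE, edgeR adjusted p = 6.18e-06). Its 24 h change of 0.28 ± 0.09 passed at adjusted p = 0.0433 but held in 8 of 18 alternatives, and leaving out 1 library ended it in 6 of 9 cases (control replicates 1 or 3, DPI 24 h replicates 1, 2 or 3, DPI 72 h replicate 2). Ccl5 had 26.7 to 37.3 CPM in controls, 23.7 to 26.6 at 24 h and 11.1 to 11.9 at 72 h, and fell by 1.48 ± 0.12 at 72 h (adjusted p = 2.54e-05). At 24 h its change of -0.33 ± 0.11 did not pass (adjusted p = 0.0573), though it passed in 4 of 18 alternatives. Ccl25 stayed between 16 and 19 CPM on average in each group and passed in none of the comparisons.

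Summed per kilobase of exonic length, mRNA of the 36 listed chemokine genes came to 112 ± 8.91 CPM per kb in controls. It was 148 ± 7.20 at 24 h and 65.3 ± 2.16 at 72 h (SD, n = 3), with no overlap between the groups. Cxcl12 made up 0.864 ± 0.0683% of this sum in controls, 3.51 ± 0.0507% at 24 h and 1.98 ± 0.132% at 72 h. It remained a minor part by this measure although its change at 24 h was the greatest among the members. The share depends on the length used, and in CPM not divided by length Cxcl12 averaged 42.5 of 311.6 at 24 h. Ccl5 and Cxcl10 led in controls, with 29.6 ± 3.23% and 22.0 ± 1.41%. At 24 h Cxcl10 (20.2 ± 0.839%), Ccl2 (20.2 ± 1.28%), Cxcl1 (19.0 ± 1.19%) and Ccl5 (18.0 ± 0.839%) had similar shares. At 72 h Cxcl1 led with 30.9 ± 1.97%, while its own CPM did not differ detectably from control, and Ccl2 had 9.76 ± 2.69%.

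**Figure D3:**
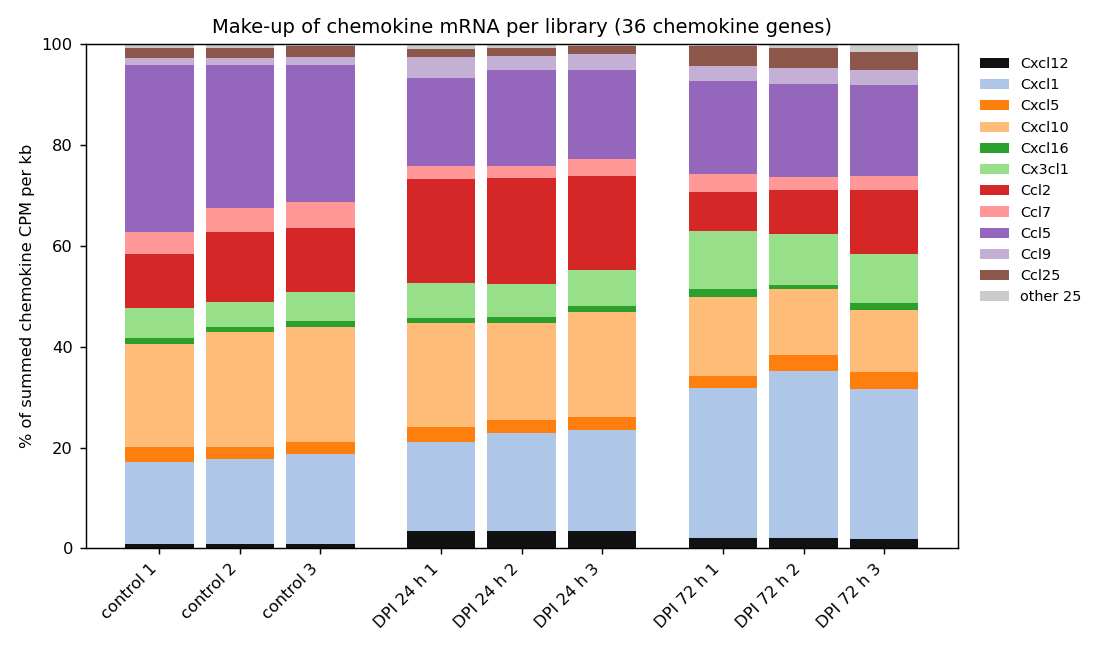
Share of the summed CPM per kb of the listed chemokine genes (y axis, percent), stacked for each of the 9 libraries (x axis). The sum is split into 11 genes and the other 25 together. Ccl5 takes 27.2 to 33.3% in controls, and Cxcl1 takes 29.8 to 33.2% at 72 h.

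Many chemokine genes are known targets of NF-kB, a family of transcription factors held in the cytoplasm by inhibitor proteins whose own genes NF-kB induces. Of 14 genes for NF-kB subunits, kinases and inhibitors, all were tested, and at 24 h 6 rose and 1 fell, beside 12.4% and 12.3% of all genes tested. The median log2 change was 0.34. Tnfaip3, an inhibitor of the pathway, rose by 0.95 ± 0.09, the subunit gene Nfkb2 by 0.46 ± 0.06 and Nfkb1 by 0.41 ± 0.05 (SE). The other 3 that rose, named after their values were seen, were the inhibitor genes Nfkbie (0.89) and Nfkbia (0.70) and the subunit gene Rel (0.50). The gene that fell was Ikbkg, the regulatory subunit of the IkB kinase, by 0.76 ± 0.06 at 24 h (edgeR adjusted p = 8.89e-06) and by 0.41 ± 0.06 at 72 h (adjusted p = 0.0013). At 72 h against control 1 rose, Nfkb1, by 0.22 ± 0.05, a call kept in 10 of 18 alternatives, and 2 fell, Ikbkg and Relb (-0.41), beside 4.73% higher and 3.83% lower over all genes. The list's median was -0.13. With 1 library left out the number that fell at 72 h ranged from 1 to 3 and that which rose from 0 to 1. Between the exposures 10 of the 14 were lower at 72 h and 1 was higher, beside 11.2% and 10.1% of all genes. These counts were 6 and 1 without DPI 24 h replicate 2.

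Some targets of NF-kB outside the chemokines were called at 24 h. Of 16 listed, 7 were tested, and 4 rose and none fell at 24 h, beside 12.4% and 12.3% of all genes tested. The median log2 change was 0.38. The 3 tested but not called at 24 h were Birc3 (0.35), Csf1 (-0.02) and Sod2 (-0.01). Their edgeR adjusted p was 0.331, 0.843 and 0.951. The adhesion molecule gene Vcam1 rose by 0.81 ± 0.05, the cytokine gene Lif by 0.95 ± 0.08 and the signalling adaptor gene Traf1 by 0.96 ± 0.11 (SE). Ptgs2, for cyclooxygenase 2, rose by 0.38 ± 0.10, and lost its call without DPI 24 h replicates 1 or 2 (edgeR adjusted p = 0.0864 and 0.0643). None passed at 72 h against control by edgeR, where 3 had an unadjusted p under 0.05, and DESeq2 also called none. In other settings of the edgeR fit Ptgs2 passed with no filter on low counts (log2 change 0.30, adjusted p = 0.0074), and Vcam1 passed without control replicate 2 (-0.16, adjusted p = 0.0404). Icam1, Il6, Tnf, Il1a and Il1b were among the 9 that did not pass the filter.

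**Figure D4:**
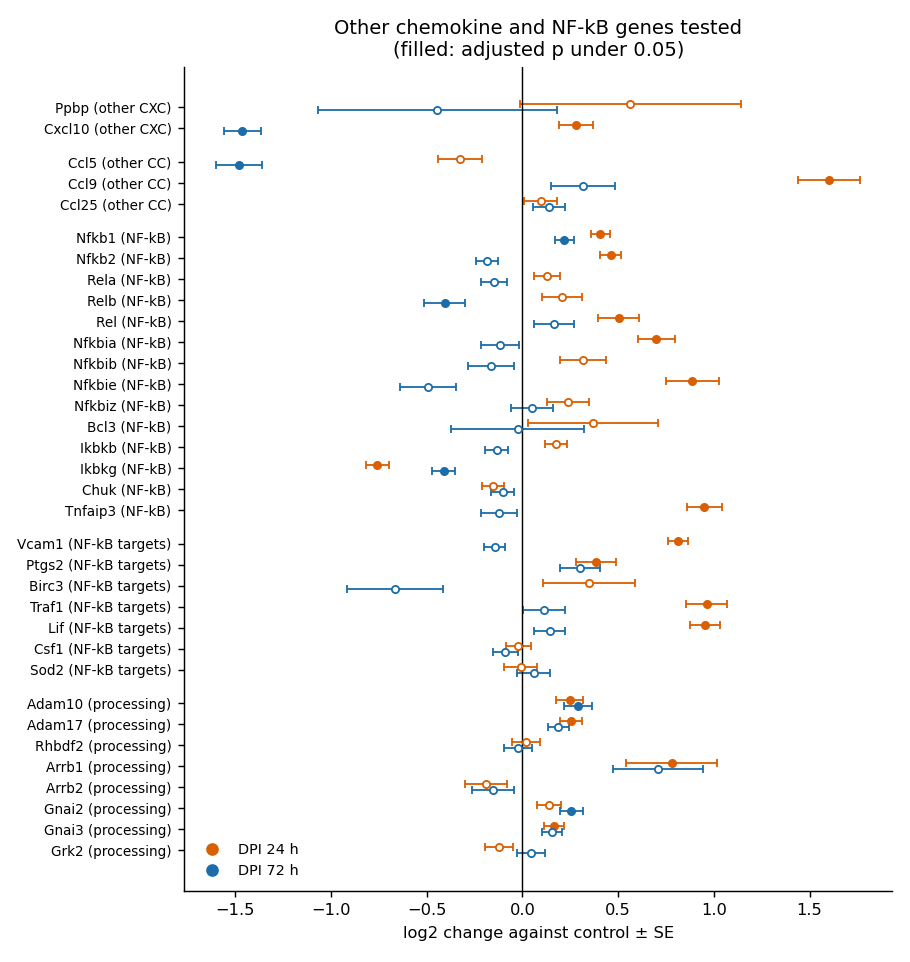
Log2 change against control with its standard error (x axis) at 24 h and 72 h (colours) for the tested genes of the other chemokine, NF-kB and processing lists (y axis), filled where the edgeR adjusted p was under 0.05. Ccl9 lies at 1.60 at 24 h, and Cxcl10 and Ccl5 lie at -1.46 and -1.48 at 72 h.

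Of 13 genes that process chemokines or couple their receptors, 8 were tested, and 4 rose and none fell at 24 h, beside 12.4% and 12.3% of all genes tested. The median log2 change was 0.15. At 72 h 2 rose and none fell, beside 4.73% and 3.83% of all genes. Adam17, a protease that sheds CX3CL1, rose by 0.25 ± 0.06 (SE, edgeR adjusted p = 0.0079), and this held in 18 of 18 alternatives. Adam10, which sheds CX3CL1 and CXCL16, rose by 0.25 ± 0.07 at 24 h and by 0.29 ± 0.07 at 72 h, calls kept in 12 and 8 of 18 alternatives. Arrb1, a beta-arrestin that binds ACKR3 and other receptors, rose by 0.78 ± 0.24 at 24 h, which was kept in 10 of 18. The fourth was Gnai3 at 0.16 ± 0.05, named after its values were seen. Gnai2, a G protein subunit, rose by 0.26 ± 0.06 at 72 h, kept in 7 of 18 alternatives. With 1 library left out the number that rose ranged from 1 to 4 at 24 h and from 0 to 4 at 72 h. Dpp4, the peptidase that inactivates CXCL12, had at most 2 counts in a library.

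Among 9913 other tested genes with a mean of at least 5 CPM, the pattern most like that of Cxcl12 over the 9 libraries was that of Txnip, with a Pearson correlation of log2 CPM of 0.995. Txnip encodes a thioredoxin-binding protein that restrains glucose uptake, and it had 28.1 ± 1.85, 81.7 ± 1.79 and 32.2 ± 1.79 CPM (SD, n = 3) in controls, at 24 h and at 72 h. Arl4c (0.994), Tpm1 (0.994), Zfp469 (0.993) and Fbxw8 (0.993) followed. The 9 points share their group means, so a high value mainly records a gene that is higher at 24 h and near control at 72 h, and it is given as a description. Fbxw8 met it with a log2 change at 24 h of 0.24, a small fraction of that of Cxcl12. Of the members, Cx3cl1 and Cxcl1 came nearest at 0.948 and 0.946, with 172 and 186 genes above them, followed by Ccl2 at 0.744, Cxcl5 at 0.657 and Cxcl16 at 0.519. Ccl7 had 0.111 and Ackr3 -0.040.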

How the data were processed

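Per the labels' protocols, total RNA was purified on RNeasy columns, and TruSeq libraries were run on a HiSeq2500. Trim Galore with cutadapt, the aligner STAR, the quantifier RSEM, and edgeR and limma appear in the submitters' processing notes with the build GRCm38 but no version or order. The sources used here do not give the strand setting or annotation release. The authors deposited raw counts per Ensembl gene, used here throughout. All 159498 values of a second table, named as normalized, equalled those raw counts. Symbols, coordinates and exonic lengths came from GENCODE on GRCm38 and upstream sequences from RefSeq; 105 IDs had no symbol.

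filterByExpr by group kept 14088 genes (99.9% of counts or more per library). Counts were scaled by TMM (factors 0.984 to 1.02) and all 9 libraries were fitted with 1 mean per group by edgeR 4.0.16's quasi-likelihood test (two-sided, R 4.3.3), with Benjamini-Hochberg adjustment over all genes tested and a threshold of 0.05. Each standard error was taken as the absolute log2 change over the square root of F. Log2 CPM used a prior count of 2. With groups of 3, an exact permutation test cannot give p under 0.1. No pair of libraries of the same group agreed within sampling noise (chi-square per degree of freedom 3.71 to 34.6), and pairs from different groups were not compared in this way. Tested on simulated 24 h counts in a step of 13816 genes, recovery was 56.7% for a 1.5-fold change, 71.6% for 2-fold and 92.4% for 4-fold, and 6.37% of calls were unchanged genes. The simulation changed 67, 67 and 66 genes at these folds, far fewer than were called in the data, so its rates need not hold there.

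The members and lists were chosen with earlier results of these data known. By rule, the text named all members, up to 4 genes of each list with the smallest p among those called against control at either time, and the 5 genes most correlated with Cxcl12 among those with a mean of at least 5 CPM, predicted genes left out. Alternatives were other scalings and filters, DESeq2 1.42.0, limma 3.58.1 voom, the 6 libraries compared fitted alone, a block for replicate number, leaving out every library in turn, and a threshold of 0.01 (not among the 18 alternatives counted in the text). Levels per kilobase of the longest coding transcript were added after seeing the data.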

Additional observations from a re-analysis of the deposited data

Results flagged for a closer look

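For each of the 8 expressed members, the difference between the 72 h and the 24 h libraries passed its own test (edgeR quasi-likelihood test), as for 21.3% of all genes. The time at which controls were harvested is not given, so this difference does not separate DPI from time in culture. On the log2 scale the difference was -2.003 for Cxcl12, -2.22 for Ccl2, -1.19 for Cxcl16, -1.08 for Ccl7, -1.06 for Cxcl5, -0.56 for Cx3cl1 and -0.47 for Cxcl1, and 0.83 for Ackr3. In each case the 3 libraries of 72 h lay all on 1 side of the 3 libraries of 24 h, as for 46.2% of all genes.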

How the results depend on the processing

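The 24 values of the members (8 genes in 3 comparisons) kept their direction in each alternative. The number of members called was 5 at 24 h in each setting, 3 to 5 at 72 h and 7 or 8 at 72 h against 24 h. The counts of all genes called at 24 h, at 72 h and at 72 h against 24 h moved more. At a threshold of 0.01 they were 1904, 627 and 1590, against 3478, 1206 and 3001, and with only the 6 libraries compared they were 759 at 72 h and 4641 at 72 h against 24 h. With 1 library left out they ranged from 2376 to 4449 at 24 h, from 744 to 1984 at 72 h and from 1978 to 4750 at 72 h against 24 h, the highest of the last 2 without control replicate 2 (at 72 h, 797 without DPI 72 h replicate 1 and 744 without replicate 2; at 72 h against 24 h, 1978 without DPI 24 h replicate 3). Without control replicate 2, which stood apart, 5, 4 and 8 members were called. The replicate numbers did not pair the libraries (correlations of their deviations -0.0925 to 0.0027). A replicate block gave 5, 3 and 8 members and 3000, 911 and 2533 genes called. As plain CPM, the order of levels in controls put Cx3cl1 at rank 2, Ackr3 at 3, Ccl2 at 4, Cxcl12 at 5, Ccl7 at 7 and Cxcl16 at 8, against 3, 5, 2, 8, 4 and 7 per exonic length. With the longest coding transcript Ackr3 was at 4 and Ccl7 at 5. Ranked by Spearman correlation, 0 of the 5 genes most like Cxcl12 were shared. Log2 values that passed in no setting turned sign. Arrb1 at 72 h against 24 h ran from -0.229 to 0.0657 with 1 library left out (above 0 without DPI 24 h replicate 1, 0.0307, or DPI 72 h replicate 1), and Ptgs2 from -0.148 to 0.0075 (above 0 without DPI 72 h replicate 2). Fbxw8 at 72 h against control was -0.0156 without scaling and -0.00069 with upper-quartile scaling. The cause of these moves was not tested. Depth limits Cxcl5, Cxcl16 and Ccl7, which had 136 counts or fewer per library.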
